A study of Mus musculus with 8 samples.

Results

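The 10 genes described here belong to the unfolded protein response and the integrated stress response. They were chosen by name, from 56980 genes in the deposited table, and comprise Eif2ak3, Ern1, Atf6, Xbp1, Atf4, Ddit3, Hspa5, Trib3, Chac1 and Stc2. All 10 were found in the table, and 9 passed the filter on low counts. Chac1 did not pass it, so the list holds 1 gene without a test. RNA was sequenced from regulatory T cells (Tregs) sorted by flow cytometry from the peripheral blood of male C57BL/6j mice bought at an age of 8 weeks. The paper defines Tregs as CD4+CD25+ for its suppression assay and does not restate the gate for sequencing. The 4 libraries of the high altitude de-acclimatization (HADA) group came from mice housed for 28 days under the low pressure of 6000 m altitude, simulated in a chamber, and then brought back to normoxia. The 4 control libraries came from mice kept in normoxia throughout. The day after return on which the cells for sequencing were sorted is not given in the sources used here. Nor do these sources say whether each library is from a single mouse, so the p-values measure the spread between libraries, which may be technical.

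The unfolded protein response answers a load of misfolded proteins in the endoplasmic reticulum (ER). Its sensors are the kinase PERK (encoded by Eif2ak3), the kinase and nuclease IRE1 (Ern1) and the membrane-bound factor ATF6 (Atf6). PERK phosphorylates the translation initiation factor eIF2alpha, which lowers translation in general and favours that of the transcription factor ATF4. Other kinases phosphorylate the same factor in response to haem shortage, viral RNA or amino acid shortage, and their shared output is called the integrated stress response. IRE1 splices the mRNA of the transcription factor XBP1, and ATF6 is cut into an active factor in the Golgi. Much of this signalling runs through phosphorylation, splicing, cleavage and translation, none of which a table of counts per gene records. In lymphocytes the pathway is best known from plasma cells, where XBP1 prepares the ER for antibody secretion.

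Of the 9 genes tested, Stc2, a target gene of the response, was past the thresholds of edgeR, higher in HADA Tregs by a log2 fold change of 5.30. It was listed with its change in these libraries already known. Its call was lost when HADA replicate 1 or control replicate 2, 3 or 4 was left out. The sensors, the transcription factors and the ER chaperone gene Hspa5 gave no difference past the thresholds of edgeR when all 8 libraries were used, and DESeq2 placed Xbp1 past them. Promoters are shown for 4 target genes, because ER stress and ATF4 act on their targets through short promoter elements. Hspa5, Chac1 and Trib3 hold a match to an element of ER stress or ATF4, and Stc2 holds none of these and 1 match to an element of another response. They are RefSeq promoters of build GRCm38.p6, from 250 bases before to 50 bases after the start of transcription, and each was found once in GRCm39 by exact match. Promoters of 9 of the 10 members were found in the table. Capitals mark matches to any of 5 motifs, searched on both strands. The motifs were the ER stress element ERSE, which is CCAAT and CCACG with 9 bases of any letter between them, its second form ERSE-II, which is ATTGG and CCACG with 1 such base between them, the core of the unfolded protein response element UPRE, TGACGTG, the core of the C/EBP-ATF composite site CARE, TGATGNAA, and the core of the antioxidant response element ARE, TGACNNNGC, to which NRF2 binds. The forms of ERSE end in the same letters, and the UPRE and ARE cores begin with the same letters. In the order Hspa5 (chr2:34661852-34662151, plus strand), Chac1 (chr2:119181473-119181772, plus strand), Trib3 (chr2:152185931-152186230, minus strand) and Stc2 (chr11:31320012-31320311, minus strand), with GRCm39 coordinates, the promoters read as follows.
Hspa5: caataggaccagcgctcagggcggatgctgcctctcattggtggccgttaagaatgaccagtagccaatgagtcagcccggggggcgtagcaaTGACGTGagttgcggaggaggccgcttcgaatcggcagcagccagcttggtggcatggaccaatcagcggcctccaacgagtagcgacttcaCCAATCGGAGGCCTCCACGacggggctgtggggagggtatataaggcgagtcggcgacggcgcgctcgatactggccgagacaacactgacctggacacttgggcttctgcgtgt
Chac1: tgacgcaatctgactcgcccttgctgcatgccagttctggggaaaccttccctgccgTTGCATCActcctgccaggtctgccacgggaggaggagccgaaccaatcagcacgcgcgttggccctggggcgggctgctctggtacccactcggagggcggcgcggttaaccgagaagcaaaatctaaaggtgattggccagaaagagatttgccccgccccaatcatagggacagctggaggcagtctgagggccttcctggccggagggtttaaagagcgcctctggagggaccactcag
Trib3: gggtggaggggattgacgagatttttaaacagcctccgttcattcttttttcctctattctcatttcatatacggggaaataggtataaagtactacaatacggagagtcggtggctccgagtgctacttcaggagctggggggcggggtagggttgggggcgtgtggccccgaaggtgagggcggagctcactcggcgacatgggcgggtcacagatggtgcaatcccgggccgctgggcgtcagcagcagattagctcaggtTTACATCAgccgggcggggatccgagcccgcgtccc
Stc2: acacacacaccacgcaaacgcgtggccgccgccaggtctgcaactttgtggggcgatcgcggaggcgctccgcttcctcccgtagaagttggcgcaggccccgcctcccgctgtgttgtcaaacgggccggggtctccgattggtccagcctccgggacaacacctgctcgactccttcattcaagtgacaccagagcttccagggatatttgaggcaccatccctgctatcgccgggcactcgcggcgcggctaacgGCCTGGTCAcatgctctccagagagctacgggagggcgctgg

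The Hspa5 promoter held an ERSE from position -65 to -47 and a UPRE core from -157 to -151, counted with the first transcribed base as 0. An ERSE occurs in 0.119% of the 32851 promoters of the table, and a UPRE core in 2.01%. Chac1 held a CARE core on the opposite strand from -193 to -186, and Trib3 had one, also on the opposite strand, from 14 to 21, where 3.97% of all promoters hold one. Stc2 held an ARE core on the opposite strand from 8 to 16, and Ern1 had a pair of them, where 12.4% of all promoters hold at least 1. ERSE-II, present in 0.0365% of promoters, was found in no member. The promoters of Eif2ak3, Xbp1, Atf4 and Ddit3 held no match to any of the 5. A match is a string of letters and not a measured binding site.

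Levels are given as CPM, the count of a gene set against a fixed library size, after TMM scaling, which sets library sizes from the genes that change least. The total count was between 22929193 and 28240337 in the HADA libraries and between 1477431 and 22584062 in the control libraries. The smallest total was that of control replicate 1, where the floor of 3 counts is 0.000203% of the total. Reads were counted over the whole span of each gene, introns included, so the density of counts over 1393 olfactory and vomeronasal receptor genes, which T cells are not known to use, was taken as a measure of signal spread over the genome. It was 0.331 ± 0.304 CPM per kb, without TMM scaling (SD, n = 4), in control and 0.143 ± 0.0578 (SD, n = 4) in HADA, which did not differ beyond the spread of the libraries (two-sided exact permutation test, p = 0.343). Control replicate 2 had the highest density, 0.745, and control replicate 1 the lowest, 0.0537. Of all genes tested, 38.7%, 82.1%, 74.9% and 69.5% were at or below the density in control replicates 1 to 4. In the HADA libraries 50.6% to 57.7% were. A gene below the density was thus not unusual in control replicates 2 to 4. Mitochondrial genes took 5.02% to 7.59% of the counts in HADA and 0.636% to 3.81% in control (two-sided exact permutation test, p = 0.0286, the smallest that 4 against 4 allows). Of 7 Treg marker genes, 6 were counted in every library, among them Il2ra and Cd4. Their summed level was 1495 to 3694 CPM in HADA and 285 to 1194 in control. Il2ra stood at 178, 10.5, 7.23 and 59.5 CPM in control replicates 1 to 4 and at 163 to 748 CPM in HADA. Cd4 stood at 199, 3.73, 4.79 and 220 CPM in control replicates 1 to 4 and at 88.0 to 234 CPM in HADA. A count in every library therefore does not show the purity of the sorted cells, which was not tested. Foxp3, the defining Treg factor, was listed at 0 throughout. Other gene spans overlap 100% of its span, and reads there were not counted.

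The quasi-likelihood test of edgeR was run on 21991 genes, and the thresholds were an adjusted p below 0.05, after Benjamini-Hochberg, with a change of more than 1 on the log2 scale. Stc2 was the 1 member past them upwards, and 0 members were past them downwards. Over all genes tested, 1.65% were past the thresholds upwards and 0.477% downwards. Upward calls were thus 77.6% of all calls, against 53.4% with library totals alone and 36.6% with DESeq2. Without HADA replicate 1, or without control replicate 2, 3 or 4, the upward count of members was 0. At an unadjusted p below 0.05 there was again 1 member, Stc2, where 26.7% of all genes were below it, 12% with a higher and 14.7% with a lower level in HADA. With DESeq2 2 members were past the thresholds upwards, Stc2 and Xbp1, and 0 downwards, against 11.2% and 19.3% of all genes. Without control replicate 1 edgeR placed 3 members past the thresholds upwards, Stc2, Xbp1 and Eif2ak3, against 15.5% of all genes, and 0 downwards, against 19.7%. DESeq2 without that library added Ern1 to them, which made 4 upwards and 0 downwards, against 26.1% and 24.9% of all genes. limma placed 1 upwards, Stc2, and 0 downwards, against 3.7% and 0.346% of all genes. The lowest HADA library exceeded the highest control library for 1 of the 9, Stc2, as it did for 9.13% of all genes.

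**Figure D1:**
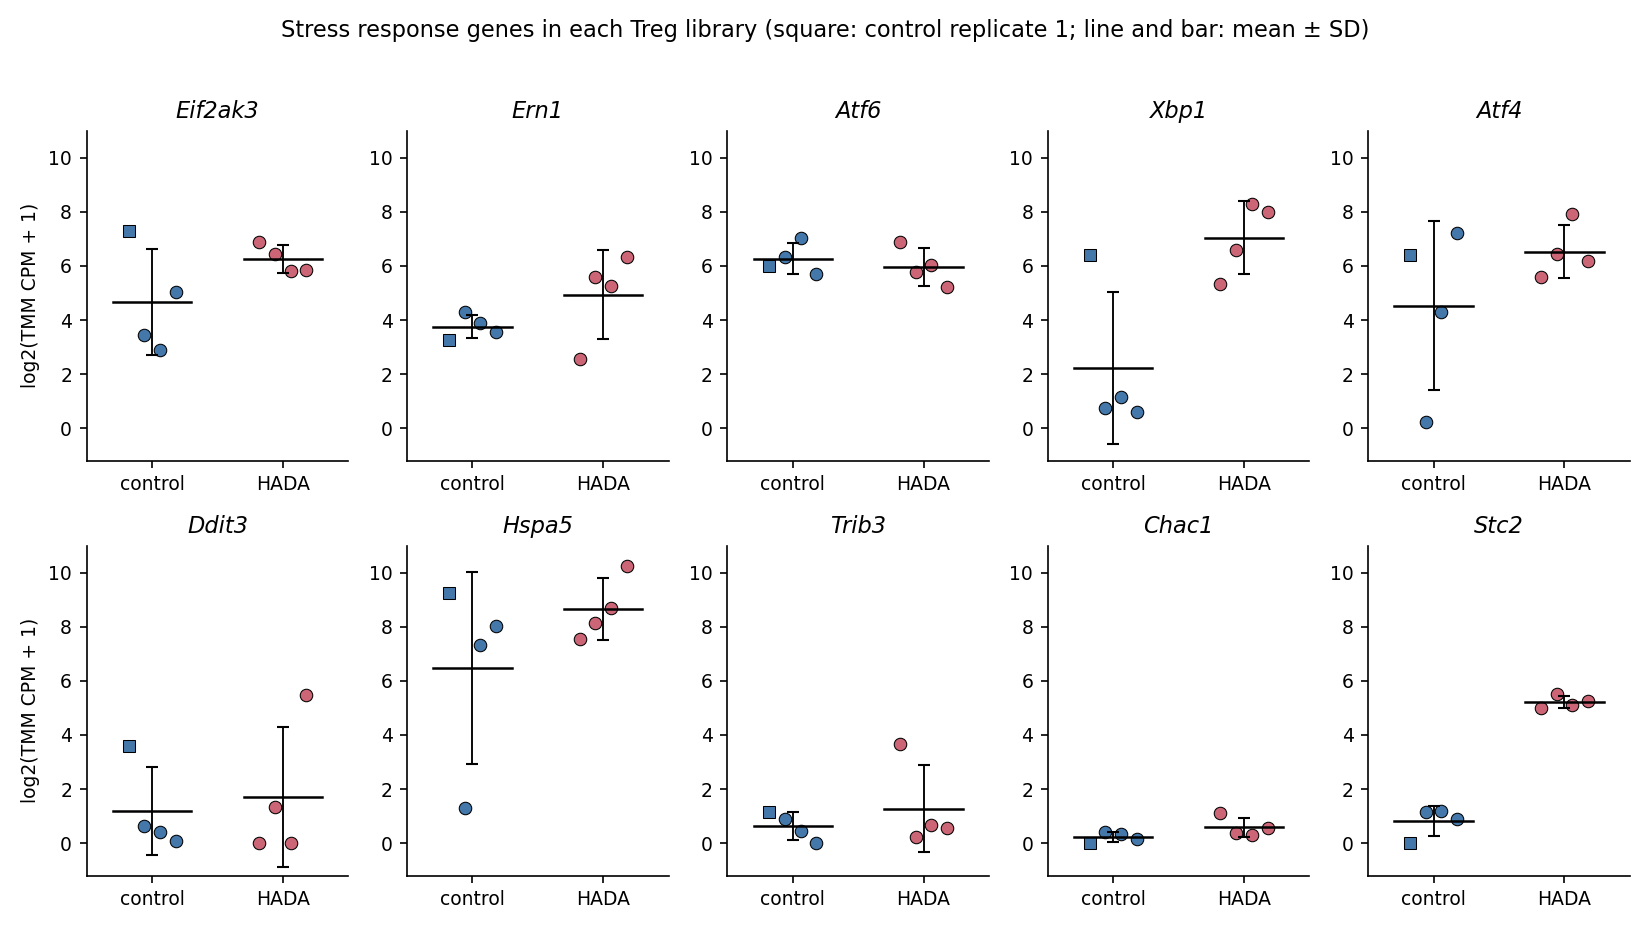
Level of each of the 10 genes in every library, as log2 of TMM-scaled CPM plus 1, with control libraries in blue and HADA libraries in red, a square for control replicate 1, and a line and bar for the mean and SD of 4 libraries. Stc2 is the gene whose groups lie apart, from 0 to 1.29 CPM in control and from 31.2 to 44.9 CPM in HADA. Control replicate 1 lies among or above the HADA libraries for every gene but Stc2 and Chac1.

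Among the sensors, Eif2ak3 (ENSMUSG00000031668, chromosome 6 from 70821499 to 70882229), which encodes PERK, stood at 118, 85.0, 55.5 and 56.5 CPM in HADA replicates 1 to 4. In control replicates 1 to 4 it stood at 155, 10.1, 6.43 and 31.9 CPM. Control replicate 1 was thus above every HADA library, and the other control libraries were below every HADA library. Its log2 fold change was 0.64 (standard error 0.997, edgeR adjusted p = 0.673). Without control replicate 1 it was 2.41, with an adjusted p of 0.043 from the same edgeR test. Exons of GENCODE vM39 cover 10.4% of the 60731 bases of this span. The count was 5.35 to 9.24 times what the receptor-gene density would place in the span in the HADA libraries. The same ratio was 51.7 in control replicate 1, 2.60 in control replicate 4, and 0.491 and 0.367 in control replicates 2 and 3.

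Ern1 (ENSMUSG00000020715, chromosome 11 from 106285476 to 106378678), which encodes IRE1, stood at 4.89, 46.9, 37.3 and 79.8 CPM in HADA replicates 1 to 4, and at 8.70, 18.6, 13.9 and 10.8 CPM in control replicates 1 to 4. In HADA, 3 of the 4 libraries were above every control library, and HADA replicate 1 was below every control library. Ern1 differed by 1.69 on the log2 scale (standard error 0.90, edgeR adjusted p = 0.230). Leaving out single libraries gave 1.33 to 1.95, with adjusted p-values from 0.154 to 0.401. For Ern1 the count fell below the receptor-gene density in control replicates 2, 3 and 4 and in HADA replicate 1, at 0.249 to 0.592 times that density.

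Atf6 (ENSMUSG00000026663, chromosome 1 from 170532243 to 170695340) encodes the sensor that becomes a transcription factor, and with 163098 bases it has the longest span of the 10 genes, of which exons cover 5.66%. Its levels were 118, 53.3, 64.7 and 35.9 CPM in HADA replicates 1 to 4 and 63.4, 79.0, 130 and 51.2 CPM in control replicates 1 to 4. The groups overlapped over most of their range. Atf6 gave a log2 fold change of -0.25 (standard error 0.73, edgeR adjusted p = 0.825), whose sign changed when HADA replicate 4 or control replicate 3 was left out. Atf6 counts exceeded the receptor-gene density in all 8 libraries, at 1.44 to 7.89 times it.

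Xbp1 (ENSMUSG00000020484, chromosome 11 from 5470659 to 5475893), the transcription factor downstream of IRE1, stood at 39.2, 95.9, 310 and 253 CPM in HADA replicates 1 to 4, on 993 to 5245 counts. Control replicates 2, 3 and 4 held 0.689, 1.22 and 0.522 CPM, on 9 to 35 counts, and control replicate 1 held 84.5 CPM, on 136 counts. The control group was thus split, with 1 library inside the HADA range and 3 libraries far below it. For Xbp1 the log2 fold change was 3.04 (standard error 1.56, edgeR adjusted p = 0.221), and DESeq2 gave 3.02 with an adjusted p of 0.047. Without control replicate 1 it was 7.88, with an adjusted p of 0.0059 from edgeR, and leaving out any other library gave 2.63 to 3.27. In the same 3 control libraries Xbp1 fell below the receptor-gene density, at 0.390 to 0.811 times it, and it was 35.5 to 401 times that density in HADA and 328 times in control replicate 1. Since B cells and plasma cells use Xbp1 strongly, their markers were read beside it. The summed level of 8 B and plasma cell markers was 919 to 3013 CPM in HADA and 102 to 2405 CPM in control, and in control replicates 1 to 4 it was 2405, 102, 376 and 1253 CPM. Control replicate 4 had the lowest Xbp1 of all libraries, and its marker sum was above those of HADA replicates 1 and 2, at 1126 and 919 CPM. Of these markers, edgeR placed 0 of the 7 tested past the thresholds, against 1.65% of all genes upwards and 0.477% downwards. That count is near these shares and is no result about the markers. Ms4a1 was listed at 0 in every library. The part of such cells in the Xbp1 difference was not tested. In sorted cells sequenced in bulk, a change in the share of a cell type and a change in RNA per cell cannot be told apart.

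The transcription factor genes of the integrated stress response had groups that overlapped. Atf4 (ENSMUSG00000042406, chromosome 15 from 80139385 to 80141742) stood at 46.9, 84.9, 241 and 72.4 CPM in HADA replicates 1 to 4 and at 83.9, 0.188, 18.6 and 146 CPM in control replicates 1 to 4. Control replicate 2 held 6 counts of Atf4, and the control libraries with the highest levels lay inside the HADA range. Atf4 differed by 0.84 on the log2 scale (standard error 1.25, edgeR adjusted p = 0.659), with 0.21 to 1.76 when single libraries were omitted. Atf4 lies wholly in exons over its 2358 bases, and apart from control replicate 2, at 0.236 times, its count was 27.4 to 722 times the receptor-gene density.

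Ddit3 (ENSMUSG00000025408, chromosome 10 from 127126643 to 127132157) encodes CHOP, a factor that promotes cell death under lasting stress. HADA replicate 4 held 720 counts and HADA replicate 2 held 36, while HADA replicates 1 and 3 held 0. The control replicates held 18, 18, 10 and 1 counts. A single library therefore carried the HADA mean of 11.2 CPM, and without HADA replicate 4 the log2 fold change went from 2.09 (standard error 2.07, edgeR adjusted p = 0.499) to -2.03. Of the Ddit3 span, 54.5% is shared with other genes, and reads there were not counted. A second entry of the same name lies wholly inside the first and was listed at 0 throughout, so the level of Ddit3 is understated in every library.

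Hspa5 (ENSMUSG00000026864, chromosome 2 from 34661982 to 34667559) encodes BiP, the ER chaperone that holds the sensors inactive until misfolded proteins draw it away. It stood at 187, 282, 418 and 1199 CPM in HADA replicates 1 to 4 and at 606, 1.44, 160 and 257 CPM in control replicates 1 to 4. HADA replicate 4 was the highest library and control replicate 2 the lowest, with 46 counts against 975 to 4588 in the other control libraries. Hspa5 differed by 1.03 on the log2 scale (standard error 1.16, edgeR adjusted p = 0.555). It was 0.28 without HADA replicate 4 and 2.01 without control replicate 1, in both cases short of the thresholds. Per length, Hspa5 lay between the 97.6th and 99.4th percentile of tested genes in every library but control replicate 2, where it lay at the 64.9th percentile. Control replicate 2 was also the library with the highest receptor-gene density and with 22 counts of Xbp1, and Hspa5 there was at 0.766 times that density. The part of this library in the differences was not tested beyond leaving it out, which moved the log2 fold change of Hspa5 to 0.62 and that of Atf4 to 0.43.

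**Figure D2:**
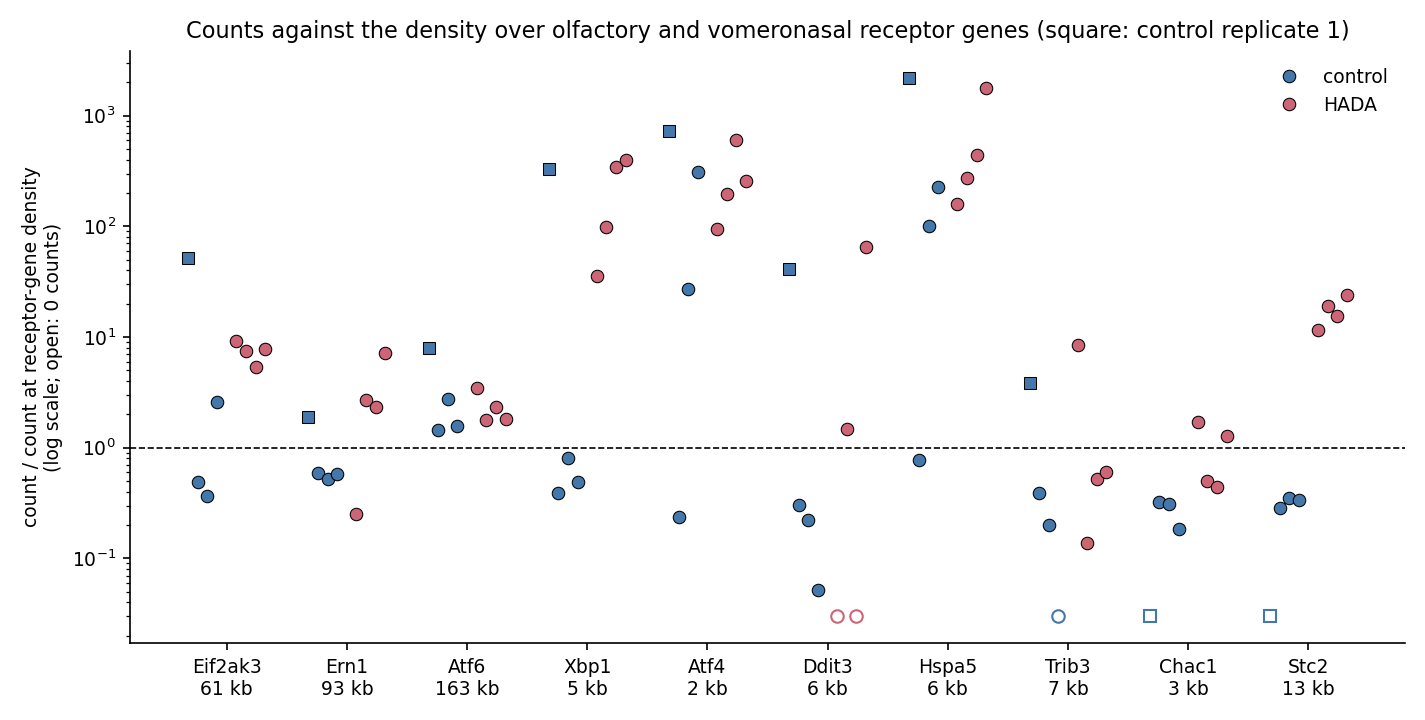
Count of each gene in each library divided by the count that the density over olfactory and vomeronasal receptor genes would place in its span, on a log axis, with the span below each name, a dashed line at 1, open symbols for 0 counts and squares for control replicate 1. Stc2 lies at 11.6 to 24.1 in HADA and at or below 0.351 in control, Atf6 lies above 1 throughout, and Trib3 and Chac1 lie below 1 in most libraries.

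Of the target genes at the end of the pathway, Stc2 (ENSMUSG00000020303, chromosome 11 from 31307307 to 31320074) had the one difference past the thresholds of edgeR. It encodes stanniocalcin 2, a secreted glycoprotein that is induced through PERK and ATF4 and also by hypoxia. It stood at 31.2, 44.9, 33.8 and 37.1 CPM in HADA replicates 1 to 4, on 573 to 1072 counts. In control replicates 1 to 4 it stood at 0, 1.22, 1.29 and 0.869 CPM, on 0, 39, 37 and 15 counts. The HADA libraries were close to each other, at 36.8 ± 5.94 CPM (SD, n = 4), and the control libraries were far below them, at 0.846 ± 0.593 (SD, n = 4). This was a log2 fold change of 5.30 (standard error 0.97, edgeR adjusted p = 0.0215), with 5.16 to 5.51 when single libraries were omitted. Over these omissions the size of the difference was thus steadier than its call. The adjusted p was 0.054 without HADA replicate 1, 0.071 without control replicate 2, 0.099 without control replicate 3 and 0.083 without control replicate 4. DESeq2 gave a log2 fold change of 4.95 with an adjusted p of 1.68e-11. The count exceeded the receptor-gene density by 11.6 to 24.1 times in HADA and was at 0 to 0.351 times in control. No control library thus showed Stc2 above the signal spread over the genome. In control replicates 2 to 4, 69.5% to 82.1% of tested genes were likewise at or below that density. In control replicate 1 the density would place 1.01 counts in the span. Per length, Stc2 went from the 12.4th to 28.1st percentile of tested genes in control to the 79.5th to 88.2nd in HADA. Stc2 was placed in the list with its change in these libraries already known, so its call is no independent evidence of a stress response.

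Trib3 (ENSMUSG00000032715, chromosome 2 from 152179342 to 152185952), a pseudokinase gene induced by ATF4 and CHOP, held 296, 4, 10 and 8 counts in HADA replicates 1 to 4 and 2, 28, 11 and 0 counts in the control replicates. HADA replicate 1 alone stood out, at 11.7 CPM against at most 1.24 CPM elsewhere. The log2 fold change of 2.65 (standard error 1.38, edgeR adjusted p = 0.226) turned to -0.44 without that library. Chac1 (ENSMUSG00000027313, chromosome 2 from 119181710 to 119184862), which encodes an enzyme that degrades glutathione and is among the classical targets of ATF4, held 29, 7, 4 and 8 counts in HADA and 0, 11, 8 and 2 counts in control, in the order of the replicates. Its highest library was again HADA replicate 1, at 1.14 CPM. It fell short of the filter on low counts, and when no filter was applied its log2 fold change was 1.56 with an edgeR adjusted p of 0.236. Trib3 and Chac1 lay above the receptor-gene density in 1 and 2 of the 4 HADA libraries and in 1 and 0 of the 4 control libraries, so neither was clearly detectable at this depth in most libraries.

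HADA replicate 1, which was high for Trib3 and Chac1, was not the library that was high for Ddit3 and Hspa5, which was HADA replicate 4. The target genes were therefore not highest in the same HADA libraries. Stc2 stood at a similar level in all 4.

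Levels of different genes were compared per kb of span. In HADA the order was Hspa5 (93.5 ± 82.7 CPM per kb, SD, n = 4), Atf4 (47.2 ± 37.2), Xbp1 (33.3 ± 24.4), Stc2 (2.88 ± 0.465), Ddit3 (2.03 ± 3.88), Eif2ak3 (1.30 ± 0.487), Trib3 (0.488 ± 0.852), Ern1 (0.453 ± 0.331), Atf6 (0.417 ± 0.217) and Chac1 (0.171 ± 0.132). The libraries of Hspa5, Atf4 and Xbp1 overlapped one with the next, and those of Xbp1 and Stc2 did not, at 7.48 to 59.2 against 2.44 to 3.52 CPM per kb. In control the order was Hspa5 (45.9 ± 45.9), Atf4 (26.4 ± 28.2), Xbp1 (4.15 ± 7.99), Eif2ak3 (0.836 ± 1.16), Ddit3 (0.551 ± 0.985), Atf6 (0.497 ± 0.214), Ern1 (0.139 ± 0.0461), Trib3 (0.0947 ± 0.0826), Stc2 (0.0662 ± 0.0465) and Chac1 (0.0587 ± 0.0496). Each neighbour in the control order overlapped with the next, except Atf6 and Ern1, at 0.314 to 0.8 against 0.0933 to 0.1996 CPM per kb. Stc2 lay next to last in control and the fourth in HADA.

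**Figure D3:**
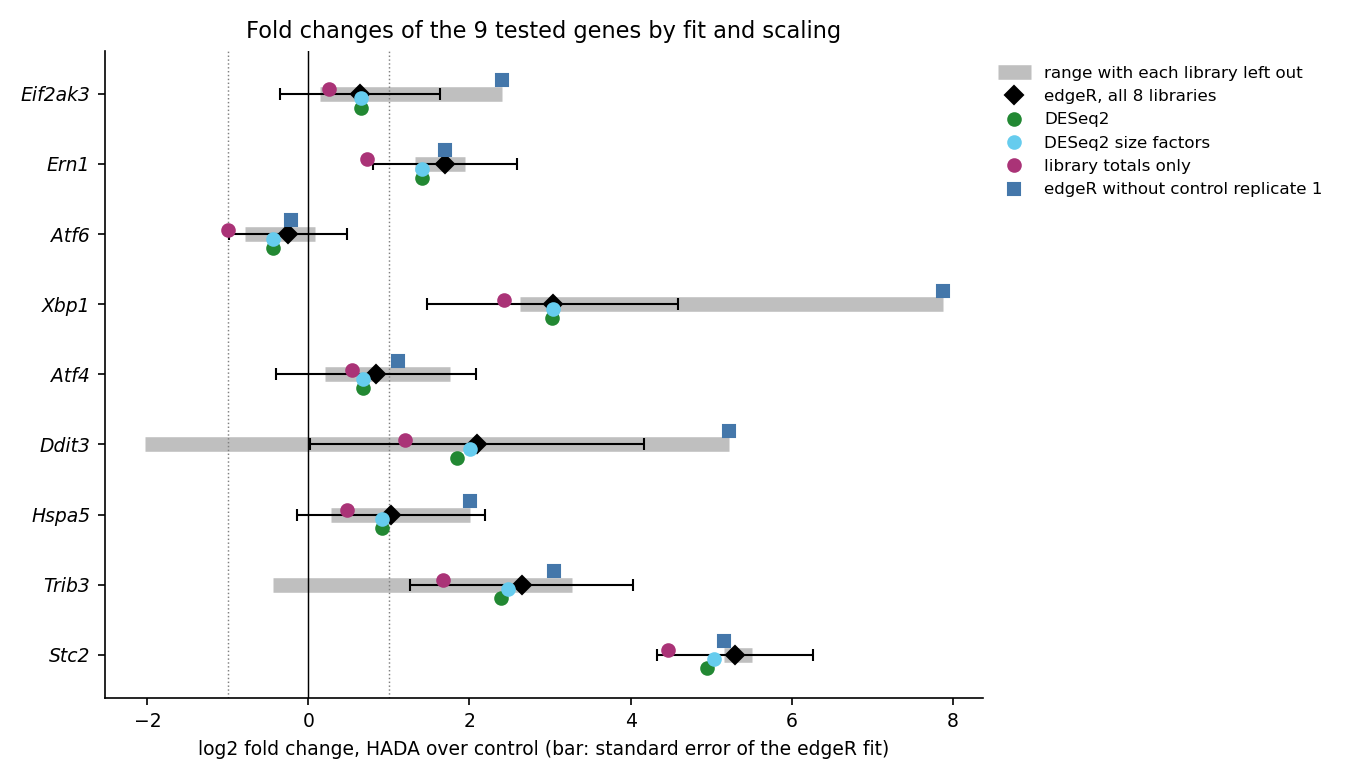
Log2 fold change of HADA over control for the 9 genes tested, with a black diamond and its standard error for edgeR on all 8 libraries, a grey bar for the range with each library left out in turn, circles for DESeq2 and other scalings, and a blue square for edgeR without control replicate 1. Stc2 stays between 4.46 and 5.51 in the fits shown, Xbp1 runs from 2.42 to 7.88, and the ranges of Ddit3, Trib3 and Atf6 cross 0.

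The fold changes moved with the scaling, and control replicate 2 had the highest TMM factor, 2.24. With library totals alone all genes had a median of -0.71 on the log2 scale, against 0.01 with TMM. Relative to that median, Stc2 had 5.18, Xbp1 3.14, Hspa5 1.19, Atf4 1.25, Ern1 1.44, Eif2ak3 0.97 and Atf6 -0.28 with library totals. When the receptor-gene density was subtracted before the test, the median of all genes was 1.0, 7 members remained testable, and relative to that median Hspa5 had -0.52, Atf4 -0.52, Eif2ak3 -0.26 and Atf6 -2.21. Xbp1 had 1.75 and Ern1 3.60 on the same relative scale. The edgeR adjusted p-values of their own log2 fold changes were 0.967 and 0.862. For both, 3 of the 4 control libraries were at 0 after the subtraction, and for Ern1 so was HADA replicate 1. Stc2 was at 0 in all 4 control libraries after the subtraction and at 28.5 to 42.5 CPM in HADA, with an edgeR adjusted p of 0.108. Its log2 fold change there was 12.06, or 11.06 relative to the median. With control at 0, that size has no measured control level to stand against. Their own log2 fold changes after the subtraction were 0.48 for Hspa5, 0.48 for Atf4 and 0.74 for Eif2ak3, of the same sign as before, and they lay below a median that was taken over 9028 genes and had itself moved up.

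The wider pathway was read from 7 lists that hold 101 genes besides the members, of which 96 were tested. Upwards 1 of the 96 was past the thresholds of edgeR, and 0 were past them downwards, against 1.65% and 0.477% of all genes. At an unadjusted p below 0.05 edgeR had 11 of the 96 higher and 1 lower, against 12% and 14.7% of all genes. The median log2 fold change of the 96 was 0.44, beside 0.01 for all genes tested. DESeq2 placed 11 of the 96 upwards and 2 downwards past the thresholds, against 11.2% and 19.3% of all genes, so the upward count was near the share of all genes with either tool. Without control replicate 1 edgeR placed 29 of 97 upwards, where 15.5% of all genes were past them, and 2 downwards, where 19.7% were. Without any 1 of HADA replicates 1 to 4 or control replicates 2 to 4, edgeR placed 0 in either direction.

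The gene past the thresholds was Eif2ak1 (ENSMUSG00000029613), which encodes HRI, the eIF2alpha kinase that responds to haem shortage and to mitochondrial stress. It stood at 1028, 1003, 829 and 712 CPM in HADA replicates 1 to 4 and at 70.8, 7.51, 15.0 and 2.84 CPM in control replicates 1 to 4. Its groups lay far apart, with 11843 to 26062 counts in HADA and 49 to 429 in control. It differed by 5.23 on the log2 scale (standard error 1.07, edgeR adjusted p = 0.0306), and other genes cover 22.6% of its span. It lost its call in 7 of the 8 fits with a library left out, all but the one without control replicate 1, with log2 fold changes between 4.90 and 6.86 over the 8 and adjusted p-values up to 0.127. The other 13 genes of its list that were tested, which encode the remaining eIF2alpha kinases, eIF2, eIF2B and the eIF2alpha phosphatase, were not past the thresholds of edgeR. Eif2s1, the gene of eIF2alpha itself, had a log2 fold change of 3.48 (edgeR adjusted p = 0.117), at 69.1 to 553 CPM in HADA and 4.17 to 94.5 CPM in control. It was past the thresholds with DESeq2 (3.44, adjusted p = 0.0031) and with limma (4.24, adjusted p = 0.0455). Eif2b2, which encodes a subunit of the exchange factor that eIF2alpha phosphorylation blocks, had 1.87 (edgeR adjusted p = 0.316). Among the eIF2alpha kinases, the gene of the ER-bound PERK and that of HRI thus differed in their values, 0.64 against 5.23, and the difference between these values was not tested.

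The remaining lists held no gene past the thresholds of edgeR. Of 23 tested ER chaperone, folding and degradation genes, 16 had a positive log2 fold change, where 50.2% of all genes did, and the median was 0.88. DESeq2 placed 2 of them upwards and 1 downwards past the thresholds, against 11.2% and 19.3% of all genes. The smallest p-values of that list belonged to Sdf2l1, Dnajc3 and Pdia3. Sdf2l1, an ER chaperone cofactor and a sensitive target of ATF6, had a log2 fold change of 4.34 (edgeR adjusted p = 0.137), with 0.0789 CPM in HADA replicate 1 and 16.2 to 56.1 CPM in the other HADA libraries, against 0.175 to 4.97 CPM in control. Dnajc3, which encodes an ER co-chaperone of BiP, had 2.49 (edgeR adjusted p = 0.177) and Pdia3, a disulfide isomerase gene, 2.09 (edgeR adjusted p = 0.187). In both, control replicate 1 lay inside the HADA range, at 155 and 292 CPM.

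Of 23 tested ATF4 and CHOP targets and factors besides the members, 14 had a positive log2 fold change, with a median of 0.47, and 3 were higher and 1 lower at an unadjusted p below 0.05 in edgeR, against 12% and 14.7% of all genes. Nupr1, a stress-induced chromatin protein gene, had 28.01 to 130 CPM in HADA and 0.406 to 19.9 CPM in control, with no overlap, and a log2 fold change of 3.40 (edgeR adjusted p = 0.129). Slc7a1, a transporter gene for cationic amino acids, had 2.08 (edgeR adjusted p = 0.164), and control replicate 1, at 33.6 CPM, overlapped with HADA. Cth, which encodes the enzyme that makes cysteine from cystathionine, lay the other way, at 0.962 to 2.43 CPM in HADA and 3.73 to 8.45 CPM in control, with a log2 fold change of -1.81 (edgeR adjusted p = 0.118). The fold changes of these targets were therefore of both signs, and edgeR placed 0 of the 23 past the thresholds. DESeq2 placed 3 upwards and 1 downwards, against 11.2% and 19.3% of all genes. These included Nupr1 (DESeq2 adjusted p = 0.0059), Slc7a1 (DESeq2 adjusted p = 0.021) and Cth (DESeq2 adjusted p = 0.0047). Without control replicate 1 edgeR placed 7 upwards and 2 downwards, against 15.5% and 19.7% of all genes. Among all genes, 9.13% had HADA wholly above control and 5.7% wholly below.

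Among 6 tested partners of the sensors, Traf2, an adaptor that binds IRE1, had 2.43 (edgeR adjusted p = 0.157), Mbtps1, the protease that makes the first cut in ATF6, had 1.75 (edgeR adjusted p = 0.283), and Rtcb, the ligase that joins spliced Xbp1, had -2.39 (edgeR adjusted p = 0.359). Rtcb rested on control replicate 4, at 454 CPM against 1.97 to 29.2 CPM in the other controls. Of 13 tested genes of cytosolic aminoacyl-tRNA synthetases and of tRNA export, 0 had an unadjusted p below 0.05, against 26.7% of all genes. Their median log2 fold change was 0.22. Sars1 had 0.79 (edgeR adjusted p = 0.536), Eprs1 -0.76 (edgeR adjusted p = 0.546) and Mars1, whose gene reaches into Ddit3, -1.28 (edgeR adjusted p = 0.550). The fold changes of this list, whose genes ATF4 is known to induce, ran from -1.28 to 1.02, the narrowest range of the 7 lists.

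Among 8 mitochondrial chaperone and protease genes the median log2 fold change was -0.36, with Hspe1 at 2.84 (edgeR adjusted p = 0.137), Clpx at -1.76 (edgeR adjusted p = 0.291) and Hspd1 at 1.72 (edgeR adjusted p = 0.303). Hspe1 and Hspd1 encode the partners of a single folding chamber. Hspe1 had no overlap between the groups, at 105 to 209 CPM in HADA and 2.48 to 63.4 CPM in control, and Hspd1 did overlap. Of 9 tested cytosolic heat shock genes, Bag3 had 3.03 (edgeR adjusted p = 0.123), Hsf1, the master factor of the heat shock response, 2.54 (edgeR adjusted p = 0.166) and Hsp90ab1 0.95 (edgeR adjusted p = 0.377), and the median was 0.29.

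**Figure D4:**
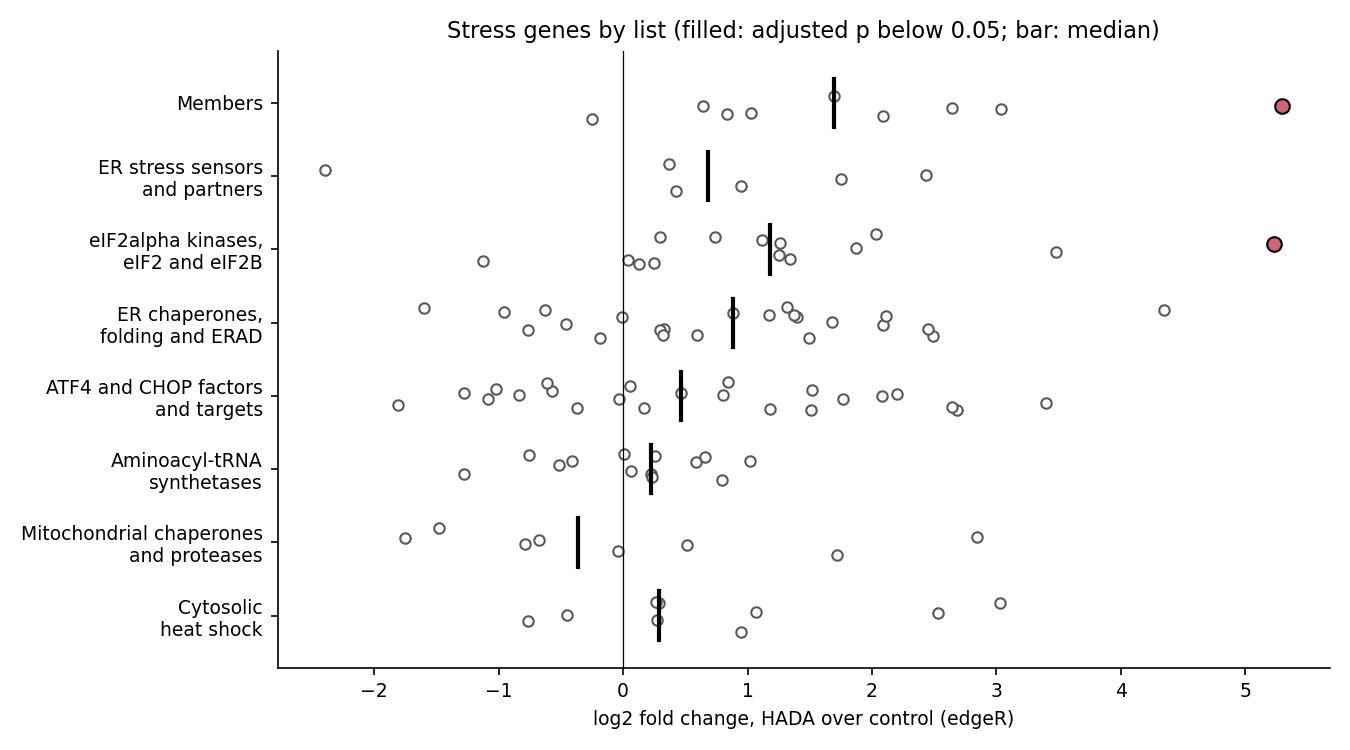
Log2 fold change of each tested gene of the members and of the 7 wider lists, with members left out of the lists, a black bar at each median and a filled point where the adjusted p was below 0.05. The filled points are Stc2 at 5.30 and Eif2ak1 at 5.23, and the medians run from -0.36 for mitochondrial chaperones and proteases to 1.69 for the members.

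Markers of other blood cells were read beside these results. The summed level of 8 myeloid markers was 732 to 3295 CPM in HADA and 51.9 to 1685 CPM in control, that of 6 platelet markers 277 to 1732 and 42.7 to 470 CPM, and that of 7 CD8 and NK cell markers 35.5 to 952 and 5.52 to 104 CPM. For 7 erythroid markers it was 146 to 2807 CPM in HADA and 1029 to 28367 CPM in control. The erythroid sum was highest in control replicate 1, and Alas2 was listed at 0 in every library. Of all these markers 1 gene, Cd8b1 of the CD8 and NK list, was past the thresholds of edgeR upwards, against 1.65% of all genes. It is named here after its values were seen. Whether other cells carried part of the differences in the stress genes was not tested.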

How the data were processed

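RNA was measured in 4 HADA and 4 control libraries, grouped by their labels. The authors made cDNA with a low-input kit and used FastQC for quality control, Trimmomatic for trimming, STAR with GRCm39 for alignment and featureCounts for counting. The deposited values are raw counts per gene, without normalization, and the counted length equals the whole gene span for 100% of 56980 genes. Tool versions and strand settings are not given in the sources used here. GENCODE vM39 named 56236 of the identifiers. Coordinates are those of the deposited table.

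The test was that of edgeR 4.0.16 (TMM, filterByExpr, quasi-likelihood test, no covariates) in R 4.3.3, with Benjamini-Hochberg adjustment over 21991 genes. The standard error was the log2 fold change divided by the square root of the F statistic. DESeq2 1.42.0, which the study names, was run without independent filtering. Where it gave no p-value, as for Trib3 and Ddit3, none is stated. limma 3.58.1 used log2(CPM + 1). The receptor-gene density was taken over 1393 genes that no other gene overlaps, and multiplied by the span. Measures with 1 value per library were compared by permutation (exact, two-sided), where 4 against 4 cannot go below p = 0.0286. Total counts of 1477431 to 28240337 set the precision, and the floor of 3 counts covers counting error only. Other tables used Python 3.11.15 with pandas 2.3.3, numpy 2.4.6 and scipy 1.17.1, and figures matplotlib 3.10.9. The fits were tried on simulated counts with no outlying library and no signal spread over the genome that differed between libraries. Such runs cannot show how these features affect the calls.

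The members and lists were chosen with earlier results of these data known. All 10 members are named, and from each list the 3 tested genes with the smallest p besides the members. Alternatives were DESeq2 and its size factors, limma, no filter, a minimum of 10 counts throughout, counts thinned to the smallest total (seed 1), subtraction of the receptor-gene density, no fold threshold, a block for the replicate number, and omission of single libraries. Library totals alone, and DESeq2 without control replicate 1, were added after seeing the data.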

Additional observations from a re-analysis of the deposited data

Results flagged for a closer look

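Of 26 groups of 4 libraries examined, 1 library lay far from the other 3 in 3 of them, where chance gives about 1.3, and all 3 concern control replicate 1. Its Xbp1 level was 6.40 on the log2 CPM scale, on 136 counts, against -0.69 to 0.40 in the other control libraries. Its Stc2 level was -3.34, on 0 counts, while the others had -0.05 to 0.48, and at the depth of this library Stc2 was not detectable rather than absent. Haemoglobin genes took 3.08% of its counts, and 0.226% to 0.583% of those of the others. The cause was not tested.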

How the results depend on the processing

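Over the alternatives, 134 of 153 member fold changes kept their direction with no call seen to be gained or lost. These include Ddit3 and Trib3 with DESeq2, which gave them no p-value, so their side of the thresholds is unknown there. Of the fold changes outside the 134, 7 were losses of the call of Stc2, the 1 member with a call to lose. They came with subtraction of the receptor-gene density, with the replicate block and with library totals alone. The others came without HADA replicate 1 and without control replicate 2, 3 or 4. DESeq2 gave 2 members higher, 2 members at an unadjusted p below 0.05, and 11 wider list genes higher and 2 lower. Of all genes, it placed 11.2% higher and 19.3% lower. DESeq2 without control replicate 1 gave 4 members higher, 4 at an unadjusted p below 0.05, and 42 wider genes higher and 3 lower. Of all genes, 26.1% were higher and 24.9% lower in that fit. 0 members were higher after subtracting the receptor-gene density, with library totals alone, or with the replicate block. The minimum of 10 counts throughout left 4 members to test, Eif2ak3, Ern1, Atf6 and Hspa5, and 0 of these were higher. It removed Stc2, which had 0 counts in control replicate 1. That setting therefore holds no test of Stc2 and cannot show whether its call is kept. At an unadjusted p below 0.05 there were 2 members with limma, 2 when drawn down, 2 with the block, 2 with library totals, 3 with no filter and 0 with at least 10 counts. With edgeR on all 8 libraries, 26.7% of all genes were below that p. The share is not given for these settings, so the counts are no result about the members. limma gave 4 wider genes higher, against 3.7% of all genes, and the subtraction 0. With each library left out, 0 to 3 members were higher and 1 to 3 were at an unadjusted p below 0.05, and 0 to 29 wider genes were higher and 0 to 2 lower. The upper ends came from the fit without control replicate 1, where 15.5% of all genes were higher and 19.7% lower. Reversed fold changes were those of Atf6 (0.055 with no filter, 0.086 without HADA replicate 4, 0.082 without control replicate 3), Ddit3 (-0.65 with the block, -2.03 without HADA replicate 4), Trib3 (-0.44 without HADA replicate 1), Rtcb (1.14 without control replicate 4), Sars1 (-0.035 drawn down, -0.090 after the subtraction), Mars1 (0.26 with the block) and Hsp90ab1 (-0.12 after the subtraction). With each library left out, their ranges were -0.78 to 0.086 for Atf6, -2.03 to 5.22 for Ddit3, -0.44 to 3.27 for Trib3 and -2.96 to 1.14 for Rtcb. The causes were not tested. The replicate numbers were not treated as pairs, since the deviations of same-numbered libraries had correlations of -0.207, 0.252, -0.0805 and -0.00316 across genes. With the replicate block Stc2 had 5.52 (edgeR adjusted p = 0.056), and 158 genes of all were higher and 11 lower. Over all genes, 363 were higher and 105 lower with edgeR, 2457 and 4247 with DESeq2, 814 and 76 with limma, 408 and 54 with no filter, 93 and 133 with at least 10 counts, 127 and 103 when drawn down, 113 and 103 after the subtraction, 206 and 180 with library totals, and 6281 and 5988 with DESeq2 without control replicate 1. With each library left out, 28 to 3716 were higher and 1 to 4732 lower.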
